A study of Mus musculus with 9 samples.

Results

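The nuclear genes that encode the subunits of the respiratory chain were examined in sorted lung fibroblasts of aged mice. The members were the protein-coding genes whose symbols begin with Nduf (a, b, c, s or v and a number), Uqcr, Cox with a number from 4 to 8 and then directly a, b, or c, or Atp5, or are *Sdha* to *Sdhd*, with a mean of at least 25 counts over the 9 libraries. The deposited table held 43346 genes, of which 82 had such a name, and 78 of these were among the 16877 genes that reached the minimum count. By textbook assignment 76 of the 78 encode subunits (35 of complex I, 4 of complex II, 8 of complex III, 14 of complex IV, and 15 of complex V), whereas *Atp5s* and *Atp5sl* share the name but not the structure. The cells came from Col1a1-GFP mice, in which GFP reports activity of the collagen I promoter, and were sorted as GFP+, CD45-, CD31-, and EpCAM- cells. The aged sham libraries (n = 4) came from mice given 1 intratracheal dose of saline and the aged bleo libraries (n = 5) from mice given 1 intratracheal dose of bleomycin, and lungs were taken at day 30. Age is given both as 72 weeks and as 18 months. All mice carried the reporter, the gate was set to leave out cells without GFP, and young mice were not analysed here. Whether any library pooled several lungs is not stated in the sources used here.

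The respiratory chain passes electrons from NADH (complex I) and succinate (complex II) through coenzyme Q, complex III, and cytochrome c to oxygen at complex IV, and the proton gradient built on the way drives ATP synthesis by complex V. Complexes I, III, IV, and V combine nuclear-encoded subunits, which are imported from the cytosol, with subunits made inside the mitochondrion, while complex II is encoded by nuclear genes alone. Fibroblasts that divide or secrete matrix are known to adjust both glycolysis and mitochondrial respiration.

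The deposited counts per library summed to between 49921946 and 68260600, so 3 counts, which a count of 0 allows, corresponded to 0.0409 to 0.0604 CPM (counting error only). The members together took 0.297% to 0.334% of the counts in aged sham libraries and 0.297% to 0.501% in aged bleo libraries. The fibroblast genes of the sort were abundant in every library, with a summed level of 8 genes of 24805 to 30568 CPM in aged sham, and 54998 to 72435 CPM after bleomycin. The higher sum was not shared by all 8. The log2 fold change of aged bleo over aged sham was above 0 for 4 and below 0 for 4, from -1.54 to 2.33. The CD45 gate did not leave the libraries free of leukocyte transcripts. The 7 pan-leukocyte markers summed to 105 to 394 CPM in aged sham, and 112 to 614 CPM after bleomycin, and the 9 measured macrophage markers to 145 to 272 CPM and 449 to 1549 CPM, with no marker of either list at 0 in all libraries and the highest sums in aged sham 4 and aged bleo 4. The digit at the end of the column headers is 4 for all aged sham libraries and for aged bleo 4, 5 for aged bleo 1 to 3, and 6 for aged bleo 5, and its meaning is not given in the sources used here.

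Most respiratory chain genes had a higher level after bleomycin, but the differences were small. The log2 fold change of aged bleo over aged sham was above 0 for 69 of 78 members, with a median of 0.23 against 0.006 for all genes tested. At a false discovery rate (FDR, Benjamini-Hochberg adjusted p of edgeR's quasi-likelihood test over all genes tested) under 0.10, 24 members (30.8%) rose, against 23.4% of all genes, and 2 members fell, against 21.4% of all genes. With a fold change over 1.5 added, the thresholds of the study, 4 members rose (*Cox5a*, *Uqcrq*, *Atp5g2*, and *Uqcr10*), against 12.3% of all genes, and 0 fell, against 11.5% of all genes. DESeq2 and limma also gave 0 fallen past that fold, and edgeR 0 at an unadjusted p under 0.05. All 5 aged bleo libraries lay above all 4 aged sham libraries for 3 members (*Cox5a*, *Uqcrq*, and *Uqcrc1*) and below them for 0, where 16.1% of all genes tested were separated upward and 16.1% downward. The count of 24 depended on single libraries. It was 6 without aged sham 1, 15 without aged sham 2, 6 without aged sham 3, 7 without aged sham 4, 43 without aged bleo 2, 12 without aged bleo 4, and 7 without aged bleo 5, and the count past the fold threshold fell from 4 to 1 without aged bleo 4. In the same order, 20.8%, 19.5%, 18.7%, 19.4%, 25.8%, 21.8%, and 19.95% of all genes tested rose. Among these fits the share of the 78 members was above that of all genes only without aged bleo 2. The count was 18 without aged bleo 1 and 24 without aged bleo 3, where 21.7% and 21.5% of all genes tested rose. In both of these fits the share of the members was also above that of all genes. The log2 fold change was above 0 for 60 members without aged bleo 4 and for 58 without both aged bleo 4 and aged sham 4. Among all 16877 genes tested, it was above 0 for 8557 with every library kept. These members are not independent replicates, since their levels moved together between libraries. The SD between libraries within the groups was 0.24 for the median log2 level of the 76 subunits. Of the genes named by the rule, *Cox5a*, *Uqcrq*, *Ndufa11*, and *Cox4i2* kept an FDR under 0.10 in every alternative fit, and the other risen ones lost the call in at least 1 of them. In bulk RNA, fewer cells of a type and less RNA per cell cannot be told apart.

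**Figure D1:**
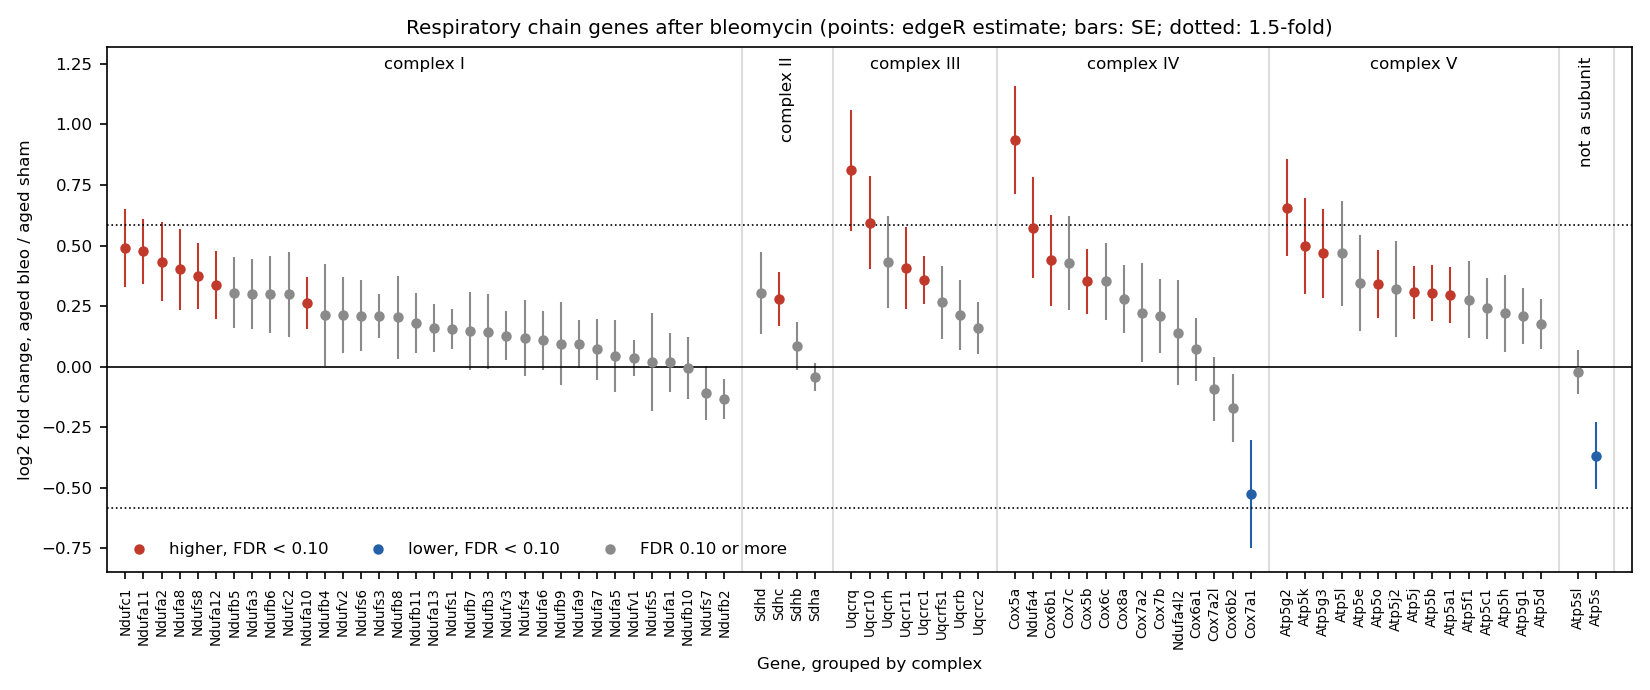
Log2 fold change of aged bleo over aged sham (y axis) for 77 of the 78 genes (x axis), grouped by complex; points are edgeR estimates, bars are 1 SE, and dotted lines mark a 1.5-fold difference. Red points (23 genes) are higher and blue points (2 genes) lower at an FDR under 0.10; *Cox5a*, *Uqcrq*, *Atp5g2*, and *Uqcr10* lie past the upper dotted line.

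The start regions of the 5 members that passed the fold threshold or were separated between the groups were read from the RefSeq table of the mouse assembly GRCm38.p6 to show what lies upstream of the genes with the clearest differences. It held 4 of the 5 (*Uqcrq* had no entry). The letters searched, on both strands of the window from 250 bases before to 50 bases after the start, were GCATGCGC (NRF1-like), CCGGAAG (ETS-like), and AAGATGGC (YY1-like), after factors known to bind many mitochondrial gene promoters. For *Cox5a*, on chromosome 9, plus strand, the 120 bases before the start (chr9:57521112-57521231) and for *Uqcr10*, on chromosome 11, minus strand, the 120 bases before the start (chr11:4704345-4704464) are shown, and neither window held a match. For *Atp5g2* (chr15:102671070-102671099, minus strand) and *Uqcrc1* (chr9:108936668-108936697, plus strand) 30 bases around the match are shown, with the matched letters in capitals. In both, the NRF1-like letters occurred once on each strand in overlapping positions, upstream of the RefSeq start in *Atp5g2* and downstream of it in *Uqcrc1*. Both matches lie within the gene spans of the deposited table.
Cox5a: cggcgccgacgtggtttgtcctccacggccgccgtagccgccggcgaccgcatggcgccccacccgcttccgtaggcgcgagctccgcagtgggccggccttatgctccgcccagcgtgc
Uqcr10: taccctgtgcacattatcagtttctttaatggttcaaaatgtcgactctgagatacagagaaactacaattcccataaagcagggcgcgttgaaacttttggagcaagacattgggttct
Atp5g2: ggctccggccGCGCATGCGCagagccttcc
Uqcrc1: actccgctctGCGCATGCGCagcgcggctc

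Among the 67 members with a RefSeq window, the NRF1-like letters were present in 10 (14.9%), against 5.46% of the 11729 tested genes with a window and 2.71% of all 32851 windows in the table. The YY1-like letters were present in 11 members (16.4%), against 4.80% and 2.75%. ETS-like letters were found in 16 members (23.9%), against 18.1% and 8.86%. A match describes the letters of the window and does not show that a factor was bound in these cells.

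The differences between the groups came with wide differences among the aged bleo libraries. Relative to the aged sham mean, the median log2 level of the 78 members was -0.09, 0.13, -0.01, and -0.01 in aged sham 1 to 4 and 0.18, -0.07, 0.05, 0.59, and 0.40 in aged bleo 1 to 5. Aged bleo 4 and 5 stood above the other libraries, aged bleo 1 slightly so, and aged bleo 2 and 3 lay within the range of the aged sham libraries. A level above every aged sham library was seen for 51, 5, 27, 70, and 59 of the 78 members in aged bleo 1 to 5. Among all 16877 genes tested it was seen for 5765, 4882, 5728, 6683, and 6381. The share of the members was near that of all genes in aged bleo 3 and below it in aged bleo 2. The order of the aged bleo libraries was 4, 5, 1, 3, and 2 from high to low in each complex, with complex III highest in aged bleo 4 (0.80) and complex II lowest there (0.43). Aged bleo 4 was 0.54 in complex I, 0.71 in complex IV, and 0.67 in complex V.

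**Figure D2:**
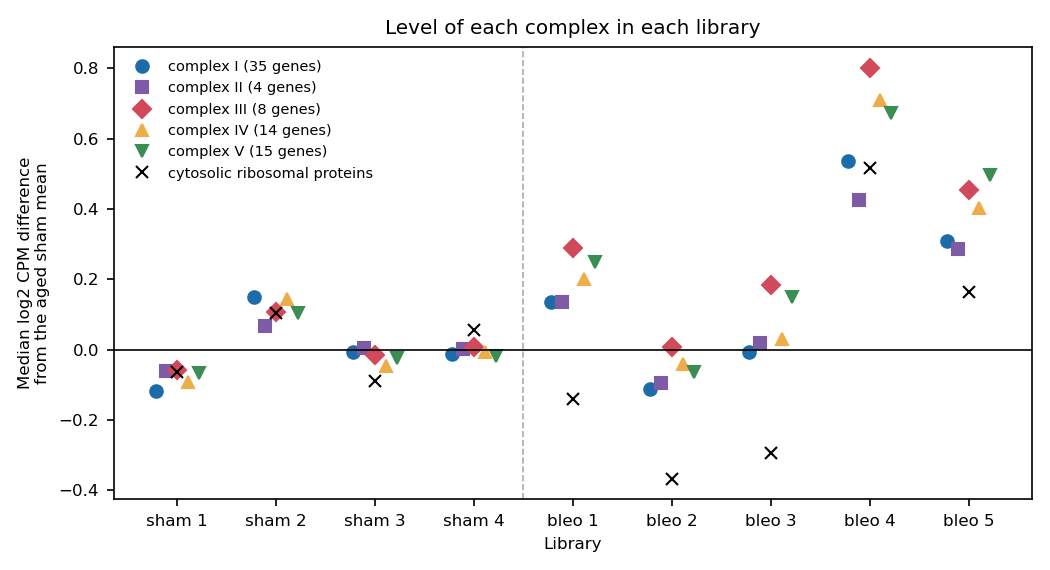
Median log2 CPM difference from the aged sham mean (y axis) of the genes of each complex and of the cytosolic ribosomal protein genes (crosses) in each library (x axis); the dashed line separates aged sham from aged bleo. All 5 complexes are highest in aged bleo 4 and next highest in aged bleo 5, while in aged bleo 1 to 3 the crosses lie below 0.

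Cell cycle and macrophage markers were also highest in aged bleo 4 and 5. The 8 cell cycle markers, all of which rose, summed to 63.3, 13.7, 12.6, and 14.7 CPM in aged sham 1 to 4 and to 84.1, 43.6, 126, 318, and 282 CPM in aged bleo 1 to 5. Macrophage markers summed to 449, 678, 540, 1549, and 886 CPM in aged bleo 1 to 5, and 4 of the 9 rose at an FDR under 0.10. Neutrophil markers were highest in aged sham 4 (1030.1 CPM) and aged bleo 4 (926 CPM). Other marker sums were lower after bleomycin. The 8 endothelial markers summed to 165 to 204 CPM in aged sham, and 29.1 to 73.5 CPM after bleomycin, mostly through *Tek*, which fell by 2.48 on the log2 scale (SE 0.46, FDR = 0.0043), while *Kdr* and *Egfl7* rose and the other 5 did not pass the test. Of the 7 smooth muscle markers 4 fell, 3 of them past the fold threshold (*Myh11*, *Cnn1*, and *Lmod1*), and 1 rose, and their sum was 3094 to 6306 CPM in aged sham, and 2252 to 3402 CPM after bleomycin, lowest in aged bleo 4. Of 9 cardiac and striated muscle markers 2 fell and 1 rose, and of 8 epithelial markers 1 rose, with sums of 11.4 to 95.8 CPM in aged sham, and 19.0 to 62.4 CPM after bleomycin for the latter. The part of proliferating cells and of RNA from these other cell types in the level of the respiratory chain genes was not tested. Without aged bleo 4 and aged sham 4, a choice made after seeing the data, the median log2 fold change of the members was 0.13. At an FDR under 0.10, 6 of the 78 members then rose, against 17.75% of all genes tested.

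**Figure D3:**
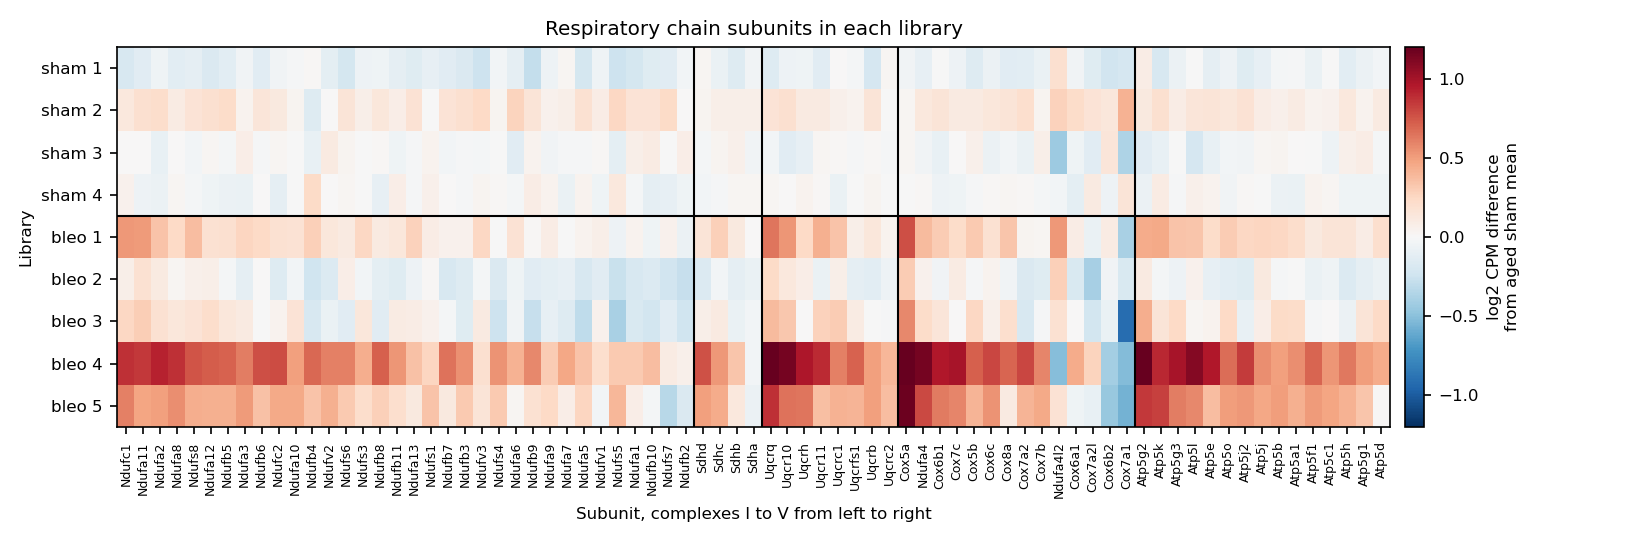
Log2 CPM difference from the aged sham mean (colour; red higher, blue lower, with values beyond the scale drawn at its end) of 75 of the 76 subunit genes (x axis, complexes I to V separated by black lines) in each library (y axis). The row of aged bleo 4 is red across nearly all genes and that of aged bleo 2 is pale, while *Sdha* stays near white in every library.

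Complex I oxidises NADH and is the largest of the complexes. Of its 35 members, 8 rose and 32 had a log2 fold change above 0, with a median of 0.18. The share that rose was 22.9%, near the 23.4% of all genes tested. None of the 35 fell by edgeR (0 at an unadjusted p under 0.05), DESeq2 (0), or limma (0), where 21.4% of all genes tested fell by edgeR. The 7 core subunits, which carry the flavin and the iron-sulfur clusters, had a median of 0.21 with 2 risen (28.6%). The 28 supernumerary subunits, which surround the core, had a median of 0.17 with 6 risen (21.4%). Both shares stand beside 23.4% of all genes tested. The 4 largest risen differences were in supernumerary subunits. *Ndufc1* stood at 7.75, 9.67, 8.88, and 9.20 CPM in aged sham 1 to 4 and at 12.7, 9.31, 10.5, 16.3, and 13.5 CPM in aged bleo 1 to 5. Only aged bleo 2 fell within the aged sham range, and the log2 fold change was 0.49 ± 0.16 (SE; FDR = 0.042 by edgeR). *Ndufa11*, a membrane-arm subunit, stood at 20.0, 25.2, 22.1, and 21.1 CPM in aged sham, and at 31.3, 24.99, 27.1, 39.6, and 30.6 CPM after bleomycin, a log2 fold change of 0.48 ± 0.13 (FDR = 0.024), again with aged bleo 2 alone inside the aged sham range. *Ndufa2* (0.43 ± 0.16, FDR = 0.065) and *Ndufa8* (0.40 ± 0.17, FDR = 0.091) followed, and over the alternatives their FDR reached 0.184 and 0.227. Aged sham 2 stood apart for *Ndufa2*, at 26.1 CPM against 21.2 to 21.7 CPM in the other aged sham libraries.

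The core subunits had log2 fold changes from -0.11 to 0.37. *Ndufs8*, an iron-sulfur subunit, rose (0.37 ± 0.14, FDR = 0.058). *Ndufv1*, the subunit that binds FMN and accepts electrons from NADH, had a log2 fold change of 0.04 ± 0.08 (FDR = 0.74), with 53.5 to 59.0 CPM in aged sham, and 50.7 to 63.8 CPM after bleomycin. *Ndufs1*, which holds iron-sulfur clusters of the same arm, was at 0.15 ± 0.08 (FDR = 0.17). The lowest values of the complex were those of *Ndufb2* (-0.14 ± 0.08, FDR = 0.23) and *Ndufs7* (-0.11 ± 0.11, FDR = 0.48), which did not pass the test.

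Complex II oxidises succinate and is also an enzyme of the citric acid cycle. Its catalytic and membrane subunits differed in their values. *Sdha*, the flavoprotein that oxidises succinate, stood at 145, 157, 145, and 152 CPM in aged sham 1 to 4 and at 149.8, 141, 146, 147, and 143 CPM in aged bleo 1 to 5. The groups overlapped, aged bleo 4 included, and the log2 fold change was -0.04 ± 0.06 (FDR = 0.59). *Sdhb*, the iron-sulfur subunit, was at 0.09 ± 0.10 (FDR = 0.54). The anchor *Sdhc*, which helps to bind coenzyme Q in the inner membrane, rose from 54.4 ± 2.36 CPM (SD, n = 4) to 66.0 ± 10.2 CPM (SD, n = 5), a log2 fold change of 0.28 ± 0.11 (FDR = 0.081), with 4 of 5 aged bleo libraries above all aged sham libraries. Its partner *Sdhd* had a log2 fold change of 0.30 ± 0.17 without passing the test (FDR = 0.19), and it reached 68.2 CPM in aged bleo 4 against 39.2 to 40.9 CPM in aged sham. Whether anchors and catalytic subunits changed differently was not tested.

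Complex III transfers electrons from coenzyme Q to cytochrome c. All 8 members had a log2 fold change above 0 (median 0.38), and 4 rose (50%, against 23.4% of all genes). *Uqcrq*, a small subunit that lies close to cytochrome b, stood at 10.9, 13.5, 11.8, and 12.3 CPM in aged sham 1 to 4 and at 18.9, 14.2, 15.7, 35.3, and 22.3 CPM in aged bleo 1 to 5. All aged bleo libraries lay above the aged sham libraries, aged bleo 2 by a narrow margin, and the log2 fold change was 0.81 ± 0.25 (FDR = 0.033). It was 0.54 without aged bleo 4, under the fold threshold, and its FDR stayed between 0.00796 and 0.0888 over the alternatives. *Uqcr10*, another small subunit, stood at 12.3, 14.7, 11.7, and 12.9 CPM in aged sham, and at 18.5, 14.0, 16.1, 28.4, and 20.1 CPM after bleomycin. Aged bleo 2 overlapped with the aged sham libraries, and the log2 fold change was 0.60 ± 0.19 (FDR = 0.038). Its value without aged bleo 4 was 0.41, which is under the fold threshold.

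*Uqcrc1*, one of the large core proteins on the matrix side, was also separated between the groups. Its level was 79.2, 82.5, 80.1, and 74.9 CPM in aged sham, and 100.1, 83.2, 97.5, 120.3, and 106 CPM after bleomycin. Aged bleo 2 came within 1 CPM of aged sham 2 and the other aged bleo libraries stood higher, and the log2 fold change was 0.36 ± 0.10 (FDR = 0.023). Its fellow core protein *Uqcrc2* was at 0.16 ± 0.11 (FDR = 0.27), and the Rieske iron-sulfur protein *Uqcrfs1* at 0.27 ± 0.15 (FDR = 0.20). *Uqcr11* rose by 0.41 ± 0.17 on the log2 scale (FDR = 0.090), whereas *Uqcrh*, the hinge protein that contacts cytochrome c1, had 0.43 ± 0.19 and did not pass the test (FDR = 0.105).

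Complex IV reduces oxygen to water. Of its 14 members 4 rose (28.6%, against 23.4% of all genes) and 1 fell (7.14%, against 21.4% of all genes), with a median log2 fold change of 0.25. *Cox5a*, a nuclear-encoded subunit on the matrix side of the enzyme, had the largest difference of all members. It stood at 20.1, 20.9, 21.0, and 20.6 CPM in aged sham 1 to 4 and at 35.3, 25.5, 30.9, 59.4, and 46.6 CPM in aged bleo 1 to 5. The aged sham libraries were within 1 CPM of each other and every aged bleo library was above them. The log2 fold change was 0.94 ± 0.22 (FDR = 0.012), it was 0.73 with aged bleo 4 left out, and the FDR was 0.0435 or lower under every alternative run. *Cox5b* rose by 0.35 ± 0.13 on the log2 scale (FDR = 0.068) and *Cox6b1*, which lies on the side where cytochrome c docks, by 0.44 ± 0.19 (FDR = 0.096). *Ndufa4*, once assigned to complex I and now counted with complex IV, rose from 25.6 ± 1.75 CPM (SD, n = 4) to 38.1 ± 12.3 CPM (SD, n = 5), a log2 fold change of 0.57 ± 0.21 (FDR = 0.058).

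Several complex IV subunits exist as pairs whose members are used by different tissues. The ubiquitous forms *Cox6a1* (67.2 ± 7.21 CPM in aged sham), *Cox7a2* (25.1 ± 2.59 CPM), and *Cox8a* (56.9 ± 4.78 CPM) were all measured well, with log2 fold changes of 0.07 ± 0.13 (FDR = 0.70), 0.22 ± 0.20 (FDR = 0.43), and 0.28 ± 0.14 (FDR = 0.15). Their striated muscle counterparts were low. *Cox7a1* was between 0.545 and 0.941 CPM in the aged sham libraries and between 0.374 and 0.622 CPM after bleomycin, with a log2 fold change of -0.53 ± 0.22 (FDR = 0.095), and it fell on a mean of only 34 counts per library, with 4 of 5 aged bleo libraries below all aged sham libraries. Its FDR reached 0.258 over the alternatives. *Cox6a2* was at 3 to 10 counts and *Cox8b* at 1 to 19 counts per library, both under the minimum and untested, as were *Cox7b2* (0 to 3 counts) and *Cox8c* (0 to 1 count), forms known from testis. *Cox6b2*, the testis form of *Cox6b1*, was nevertheless measured at 11.5 ± 1.38 CPM in aged sham, and 10.2 ± 1.68 CPM after bleomycin (log2 fold change -0.17 ± 0.14, FDR = 0.37). *Ndufa4l2*, a hypoxia-responsive relative of *Ndufa4*, was at 0.14 ± 0.22 (FDR = 0.65), and *Cox7a2l*, known for joining complexes III and IV in supercomplexes, at -0.09 ± 0.13 (FDR = 0.61).

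**Figure D4:**
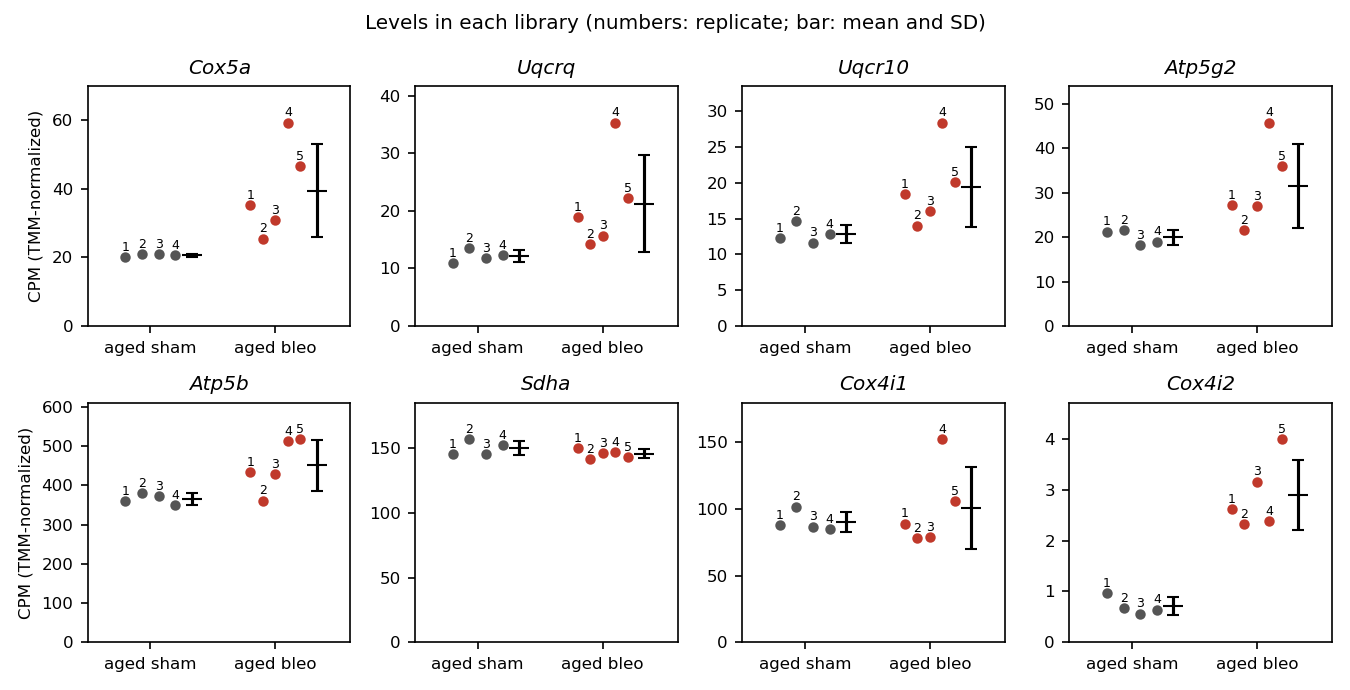
TMM-normalized CPM (y axis, from 0) in each library for 8 genes; points are libraries with their replicate number, and the black bar is the group mean with its SD (n = 4 aged sham, n = 5 aged bleo). *Cox5a*, *Uqcrq*, and *Cox4i2* do not overlap between the groups, *Sdha* lies between 141 and 157 CPM in all 9 libraries, and *Cox4i1* stands out in aged bleo 4.

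Complex V makes ATP. All 15 members had a log2 fold change above 0 (median 0.31), of which 7 rose (46.7%, against 23.4% of all genes) and 8 did not pass the test. In aged bleo 2, 1 of the 15 lay above all aged sham libraries, against 4882 of all 16877 genes tested. The catalytic head held its most abundant transcripts by FPKM. *Atp5b*, the catalytic beta subunit, stood at 359, 381, 372, and 349 CPM in aged sham 1 to 4 and at 434, 361, 429, 513, and 517 CPM in aged bleo 1 to 5. Aged bleo 2 lay inside the aged sham range and the other 4 above it, with a log2 fold change of 0.30 ± 0.11 (FDR = 0.065). *Atp5a1*, the alpha subunit, rose by 0.29 ± 0.12 (FDR = 0.076), from 330.0 ± 16.8 CPM (SD, n = 4) to 405 ± 60.5 CPM (SD, n = 5). The remaining head subunits *Atp5c1* (0.24 ± 0.13), *Atp5d* (0.18 ± 0.10), and *Atp5e* (0.35 ± 0.20) did not pass the test.

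The Atp5g genes encode the same mature c subunit, which forms the rotor ring, and differ in the part that is cut off on import. *Atp5g2* stood at 21.2, 21.6, 18.2, and 19.0 CPM in aged sham, and at 27.2, 21.5, 27.0, 45.8, and 35.9 CPM after bleomycin. Aged bleo 2 fell just inside the aged sham range, and the log2 fold change was 0.66 ± 0.20 (FDR = 0.032) or 0.47 without aged bleo 4. *Atp5g3* rose by 0.47 ± 0.18 on the log2 scale (FDR = 0.076), with 72.7 ± 3.42 CPM in aged sham, and 100.6 ± 28.6 CPM after bleomycin. *Atp5g1* was at 0.21 ± 0.12 (FDR = 0.19), with 24.4 ± 1.27 CPM and 28.2 ± 4.58 CPM. Of the 4 peripheral stalk subunits, which hold the head against the rotor, *Atp5o* (0.34 ± 0.14, FDR = 0.089) and *Atp5j* (0.31 ± 0.11, FDR = 0.053) rose, and of the 3 small membrane subunits *Atp5k* rose (0.50 ± 0.20, FDR = 0.077). For *Atp5o*, aged sham 2 was at 52.8 CPM and the other aged sham libraries were at 46.2 to 47.2 CPM. *Atp5s*, which has the name of a subunit but is an assembly-related protein, was one of the 2 members that fell (-0.37 ± 0.14, FDR = 0.066), from 6.17 ± 0.592 CPM (SD, n = 4) to 4.79 ± 0.737 CPM (SD, n = 5), and *Atp5sl* was at -0.02 ± 0.09.

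Levels can be compared between genes only per length, for which the deposited FPKM values were used, although these divide by the length of all exons and so understate short genes with long isoforms. The mean FPKM over the 9 libraries was highest for *Atp5a1* (50.6) and *Cox8a* (49.8) and lowest for *Cox7a1* (0.697), with a median of 9.52 among the 78 members and of 2.15 among all genes tested. The most abundant member was *Ndufb9* at 21.2 FPKM in complex I, *Sdha* at 16.1 FPKM in complex II, and *Uqcrh* at 16.9 FPKM in complex III. The member genes were short, with a median exon length of 1349 bases against 3378 bases for all genes tested. Across the 76 subunits the rank correlation of log2 fold change with length was -0.09, and across all genes -0.04, a description in which genes are not independent replicates.

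Some subunits have symbols outside these patterns, among them *Cox4i1* and *Cox4i2* (Cox4 followed by i), and were examined as a list of their own. This list also held *Atpif1*, the inhibitor of complex V rather than a structural subunit. Of the 7 genes in the list 5 rose (71.4%, against 23.4% of all genes), *Atpif1* included, with a median log2 fold change of 0.55. Of the 7, 2 were separated between the groups (16.1% of all genes tested), again with *Atpif1* included. *Cox4i2*, the isoform of the Cox4 subunit that is known from lung and induced by low oxygen, stood at 0.969, 0.667, 0.565, and 0.645 CPM in aged sham 1 to 4 and at 2.62, 2.33, 3.16, 2.37, and 3.99 CPM in aged bleo 1 to 5. Every aged bleo library was more than 2 times the highest aged sham library, and the log2 fold change was 2.02 ± 0.24 (FDR = 0.000472). Aged bleo 4 was not the highest library here. *Cox4i1*, the common isoform, stood at 88.1, 102, 86.8, and 85.1 CPM in aged sham, and at 89.1, 78.4, 78.7, 153, and 106 CPM after bleomycin. Its groups overlapped (0.16 ± 0.19, FDR = 0.55), and the value turned to -0.05 when aged bleo 4 was left out. *Cox4i2* also served as 1 of the 10 pericyte markers, and 6 of these rose (*Trpc6*, *Higd1b*, *Cox4i2*, *Notch3*, *Gucy1a3*, and *Cspg4*) while *Kcnj8* and *Abcc9* fell, with a summed level of 928 to 1142 CPM in aged sham, and 447 to 1039 CPM after bleomycin. The part of pericytes in the difference was not tested.

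The others of the list were *Atpif1*, the inhibitor of complex V, which rose from 22.0 ± 1.75 CPM (SD, n = 4) to 33.4 ± 9.34 CPM (SD, n = 5) with no overlap (0.61 ± 0.19, FDR = 0.032), *2010107E04Rik*, a small complex V subunit (0.71 ± 0.25, FDR = 0.053), *Ndufab1* (0.27 ± 0.11, FDR = 0.095), *Cyc1*, which encodes cytochrome c1 of complex III (0.23 ± 0.10, FDR = 0.094), and *Usmg5*, another small subunit of complex V (0.55 ± 0.25, FDR = 0.109). The 13 subunits encoded by mitochondrial DNA are listed at 0 in every library, as are all 37 genes of the mitochondrial chromosome, so their levels could not be set beside the nuclear ones.

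Other mitochondrial gene lists were set beside the members. Proteins that assemble the complexes had a median log2 fold change of 0.14, and 15 of 53 rose and 2 fell. Among them *Higd2a* (0.58 ± 0.12, FDR = 0.0066) and *Cox11* (0.49 ± 0.11, FDR = 0.010), both needed for complex IV, and *Timmdc1* (0.41 ± 0.10, FDR = 0.015), needed for complex I, rose, whereas *Surf1* (-0.37 ± 0.10, FDR = 0.023) and *Ndufaf7* (-0.33 ± 0.09, FDR = 0.019) fell. The mitochondrial ribosome, which makes the subunits encoded by mitochondrial DNA, had 23 of 77 genes risen and 1 fallen (median 0.21), led by *Mrpl52* (0.64 ± 0.18, FDR = 0.021). Of 20 protein import genes 7 rose and 0 fell by edgeR, DESeq2, or limma (0 at an unadjusted p under 0.05; median 0.26), among them the inner membrane channel *Timm23* (0.65 ± 0.16, FDR = 0.013) and the outer membrane channel *Tomm40* (0.48 ± 0.14, FDR = 0.023). These shares stand beside 23.4% risen and 21.4% fallen among all genes.

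The citric acid cycle and pyruvate dehydrogenase were mixed, with 4 of 17 risen (23.5%) and 2 fallen (11.8%; median 0.09). *Mdh2* (0.43 ± 0.13, FDR = 0.027) and *Dlat* (0.27 ± 0.08, FDR = 0.028) rose and *Suclg2* (-0.34 ± 0.07, FDR = 0.0068) and *Idh3g* (-0.26 ± 0.06, FDR = 0.0077) fell. The 17 genes of the mobile carriers and coenzyme Q synthesis had 4 risen and 4 fallen (23.5% each; median -0.10). Among all genes tested 23.4% rose and 21.4% fell, so the shares that rose in both lists were near those of all genes. *Cycs*, which encodes cytochrome c, stood at 14.6, 16.0, 16.6, and 16.1 CPM in aged sham, and at 18.6, 18.2, 18.0, 29.8, and 27.7 CPM after bleomycin without overlap (0.51 ± 0.17, FDR = 0.045). *Etfa*, which feeds electrons from fatty acid oxidation to coenzyme Q, fell by 0.70 on the log2 scale (SE 0.07, FDR = 0.000201).

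Of 14 genes listed as regulators of mitochondrial biogenesis 2 rose (14.3%, against 23.4% of all genes), *Esrra* (0.37 ± 0.13, FDR = 0.055) and *Tfb2m* (0.28 ± 0.08, FDR = 0.023), and 0 fell by edgeR, against 21.4% of all genes (0 at an unadjusted p under 0.05, 1 by DESeq2, and 0 by limma). *Ppargc1a* (0.14 ± 0.24, FDR = 0.69), *Nrf1* (0.05 ± 0.07, FDR = 0.63), *Gabpa* (-0.04 ± 0.06, FDR = 0.64), *Yy1* (0.02 ± 0.05, FDR = 0.76), and *Tfam* (-0.10 ± 0.06, FDR = 0.25) did not pass the test. Cytosolic ribosomal protein genes, which are also short and abundant, had 1 of 76 risen and 1 fallen and a median of 0.01. Their median level relative to aged sham was -0.14, -0.37, -0.29, 0.52, and 0.16 in aged bleo 1 to 5, so that aged bleo 4 was high for these genes as well, while aged bleo 1 to 3 were low.

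**Figure D5:**
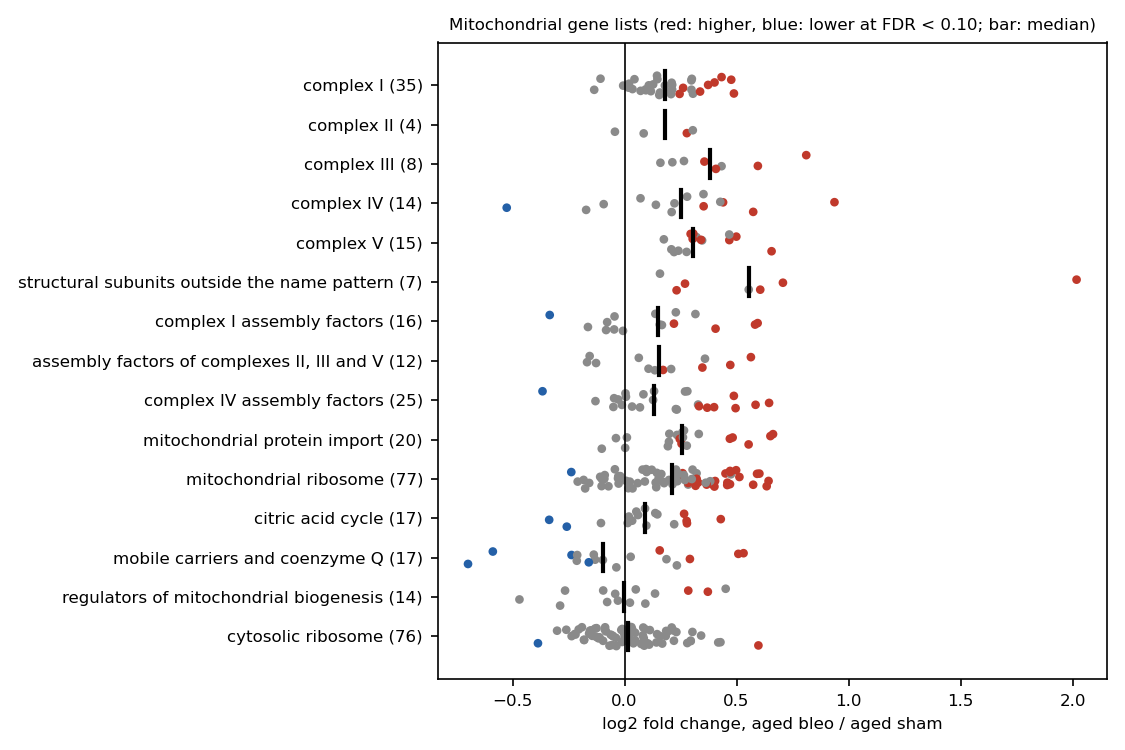
Log2 fold change of aged bleo over aged sham (x axis) of every tested gene in the 5 complexes and in 10 other mitochondrial or ribosomal lists (y axis, number of genes in brackets); red points rose and blue points fell at an FDR under 0.10, and black bars are medians. The medians of the complexes lie between 0.18 and 0.38 and that of the cytosolic ribosome at 0.01.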

How the data were processed

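The data were poly-A RNA-Seq libraries of sorted lung fibroblasts, 4 of aged sham mice and 5 of aged bleo mice. The authors deposited 1 table that holds, for each gene and library, the raw read count and an FPKM value, which the authors scaled to gene length and library total. Per the submitters' processing notes the tools included STAR 2.5.2b and featureCounts, and the build was mm10 (GRCm38). The strand setting of the counting is not given in the sources used here, so near-identical and overlapping genes may share reads.

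The 16877 genes with a mean of at least 25 counts over the 9 libraries were tested by the quasi-likelihood method of edgeR 4.0.16 in R 4.3.3, after TMM normalization, with no covariate and with Benjamini-Hochberg adjustment over all of them. Calls used an FDR under 0.10, with or without a fold change over 1.5. CPM values are TMM-normalized, log2 levels use a prior count of 2, and SEs were derived from the fold change and its test. No library was a duplicate of another in its group, since chi-square per degree of freedom between their counts was at least 31. Alternatives were DESeq2 1.42.0, limma 3.58.1 on log2 CPM, log2(FPKM + 0.1), and log2(FPKM + 1), other normalizations and filters, GC and length offsets, stricter thresholds, each library left out, and the replicate number as a block. The scripts were first tested on simulated data.

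The members, lists, and motifs were chosen with earlier results of these data known. Named genes were up to 4 members per complex with an FDR under 0.10 and the largest change, 10 chosen subunits (core subunits and *Cox5a*), tissue isoforms with their partners, the member with the highest mean FPKM in each complex, and genes as part of their lists. *Ndufb2*, *Ndufs7*, *Ndufs8*, *Uqcrc2*, *Sdhd*, *Cox5b*, *Atp5j*, *Atp5s*, *Atp5sl*, and the remaining complex V subunits were named after their values were seen. For 1 core subunit of complex I, the single-gene result is not reported here, and the gene is counted in the totals. P-values set each difference between the groups against the spread between these samples within the groups.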

Additional observations from a re-analysis of the deposited data

Results flagged for a closer look

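Of 80 sets of libraries (35 named genes and the 5 complexes, in each group), 2 held a library that stood far from the others of its group by Dixon's test, which marks about 1 set in 20 by chance, and both were aged sham 2. *Atp5o* stood at 52.8 CPM in aged sham 2 and at 46.2 to 47.2 CPM in the other aged sham libraries. *Ndufa2* stood at 26.1 CPM there against 21.2 to 21.7 CPM. Without aged sham 2, 15 of the 78 members rose at an FDR under 0.10, against 19.5% of all genes tested.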

How the results depend on the processing

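The median log2 fold change of the members was above 0 under every alternative, from 0.13 without aged bleo 4 and aged sham 4 to 0.31 without aged bleo 2, and the counts depended more on the processing. Against 24 members risen at an FDR under 0.10, there were 14 by limma on log2(FPKM + 1), 15 with library size alone, 15 without a filter, 6 without aged bleo 4 and aged sham 4, 7 at an FDR under 0.05, and 6 to 43 with 1 library left out. Of all genes tested, 23.9% rose by limma on log2(FPKM + 1), 22.5% with library size alone, and 13.6% without a filter (30563 genes). The share was 17.75% without both libraries and 18.7% to 25.8% with 1 library left out. For an FDR under 0.05 at any fold the share of all genes was not counted, so the 7 members cannot be set against it. Against 4 past the fold threshold, there were 2 by limma on log2(FPKM + 1), 1 without both libraries, 0 at a fold over 2, and 1 to 6 with 1 library left out. Against 2 fallen, there were 1 by DESeq2, by limma on log2 CPM, with library size alone, and without both libraries, 0 without a filter and at an FDR under 0.05, and 0 to 2 with 1 library left out (0 to 1 past the fold threshold). All genes called numbered 4022, but 1785 by limma on log2(FPKM + 1) and 2284 at a fold over 2. The replicate block left out aged bleo 5, whose number does not occur in aged sham. With it, 3 members rose, against 16.6% of all genes tested, 2 of them past the fold threshold, and 0 fell. Leaving out aged bleo 5 without a block gave 7 members risen. The labels do not tie a replicate number to a shared animal or batch, and the correlations between same-numbered libraries of -0.13 to 0.326, with 1 of 4 aged sham libraries closest to its own number, did not pair the samples. The direction turned for *Cox6a1* (-0.0274) and *Ndufv1* (-0.0375) with GC and length offsets, and without both libraries for *Cox4i1* (-0.0853), *Cox6a1* (-0.0967), *Ndufb9* (-0.0433), and *Ndufv1* (-0.0447), none of which passed the test. With 1 library left out, their ranges were -0.0499 to 0.236 for *Cox4i1*, -0.0488 to 0.149 for *Cox6a1*, -0.0626 to 0.177 for *Ndufb9*, and -0.019 to 0.0746 for *Ndufv1*. The cause was not tested. Depth limited *Cox7a1*, at 34 counts on average, and the 4 genes under the minimum count most.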

Other observations

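Of 6 measured genes for the carriers that link ATP made by complex V to the rest of the cell, 4 rose (66.7%, against 23.4% of all genes tested). *Slc25a5*, which encodes an adenine nucleotide translocase of the inner membrane, stood at 94.6, 90.7, 107, and 91.3 CPM in aged sham 1 to 4 and at 139, 113, 140.1, 219.8, and 194 CPM in aged bleo 1 to 5, without overlap (log2 fold change 0.75 ± 0.19, edgeR FDR = 0.015). The outer membrane channel *Vdac1* also rose (0.67 ± 0.17, FDR = 0.015), while *Slc25a4* (0.12 ± 0.11, FDR = 0.41) and the phosphate carrier *Slc25a3* (0.02 ± 0.12, FDR = 0.93) did not pass the test. Of 6 genes for uncoupling and the handling of reactive oxygen, *Ucp2* rose (0.91 ± 0.17, FDR = 0.0046) and *Cat*, which encodes catalase, fell by 0.26 on the log2 scale (SE 0.11, FDR = 0.089). *Sod2*, the superoxide dismutase of the mitochondrial matrix, was at 0.29 ± 0.14 (FDR = 0.15).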
